A study of Mus musculus with 4 samples.

Results

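The 10 genes followed here belong to the Notch signalling pathway and were measured in mouse lung tumours with and without Mll4. The group comprised the 4 receptors Notch1, Notch2, Notch3 and Notch4, the ligands Dll1, Dll4, Jag1 and Jag2, and the target genes Hes1 and Hey1. They were selected by gene symbol from the 24391 genes listed for each sample, and all 10 were present. All 10 also passed the filter on low counts, as did 16001 genes in all. The samples were 2 lung tumours from mice with the K-Ras LSL-G12D allele, in which a lox-stop-lox cassette keeps mutant K-Ras silent until Cre recombinase removes it, and 2 from mice with the same allele and Mll4 fl/fl, labelled K-Ras Mll4-/-. Every mouse therefore carried the oncogenic K-Ras allele, and the groups differ in Mll4, a histone H3 lysine methyltransferase of enhancers now named Kmt2d. The labels name neither the Cre driver nor the age of the mice, and do not say whether the samples of a group came from separate animals, so p-values measure only the spread between these samples. RNA was taken from dissociated tumours after magnetic removal of cells bearing the leukocyte antigen CD45.

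Notch receptors are single-pass proteins that are cut after binding a Delta-like or Jagged ligand on a neighbouring cell. The freed intracellular part enters the nucleus, joins the DNA-binding protein RBPJ and a Mastermind coactivator, and switches on repressors of the HES and HEY families. In the lung the pathway is known for directing airway cells towards the secretory club cell fate rather than the ciliated or neuroendocrine fate, and for arterial specification and sprouting control in blood vessels. Notch4 and Dll4 are known mainly from endothelium, Notch3 from pericytes and smooth muscle, and Notch1, Notch2, Jag1 and Hes1 from epithelium as well.

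Counts ranged from 26683033 to 36677987 gene-assigned reads per sample, with overlapping group ranges. Values are given as CPM, the reads of a gene relative to the size of its library, after TMM scaling between samples, in which 3 reads correspond to between 0.0830 and 0.114 CPM. All 10 genes lay far above that floor, with 809 reads for Notch3 as the lowest count of any member in any sample. Kmt2d itself was at 395 and 526 CPM in the K-Ras samples and at 367 and 317 CPM in the K-Ras Mll4-/- samples (log2 fold change -0.43, SE 0.21, edgeR adjusted p = 0.302), so the loss of Mll4 is taken from the labels and not from these totals per gene. K-Ras replicate 2 stood apart in airway genes. The summed level of 8 ciliated-cell markers was 965 CPM there, against 171 CPM in K-Ras replicate 1 and 95.1 and 103 CPM in the K-Ras Mll4-/- samples. The summed level of 6 club-cell markers was 3831 CPM there, against 668 to 848 CPM in the other samples. Values without this sample are therefore also given for members, named pathway genes and marker lists where they differ by more than 1.5-fold or in sign.

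Promoter sequences are shown for the receptors Notch1, Notch4 and Notch2 and the ligand Jag1, since the first pair had lower and the second pair higher values in the K-Ras Mll4-/- samples. Each is the 250 bases before the gene's start in RefSeq (GRCm38.p6), read 5′ to 3′ on the gene's strand, and the capitals mark CpG dinucleotides. They lie at chr2:26503823-26504072, minus strand, at chr17:34564045-34564294, plus strand, at chr3:98013288-98013537, plus strand, and at chr2:137116521-137116770, minus strand.
Notch1: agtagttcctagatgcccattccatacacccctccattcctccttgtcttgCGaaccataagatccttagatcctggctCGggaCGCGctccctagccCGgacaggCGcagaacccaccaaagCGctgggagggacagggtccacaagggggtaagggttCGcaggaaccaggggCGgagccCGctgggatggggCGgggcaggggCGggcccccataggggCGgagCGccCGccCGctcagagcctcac
Notch4: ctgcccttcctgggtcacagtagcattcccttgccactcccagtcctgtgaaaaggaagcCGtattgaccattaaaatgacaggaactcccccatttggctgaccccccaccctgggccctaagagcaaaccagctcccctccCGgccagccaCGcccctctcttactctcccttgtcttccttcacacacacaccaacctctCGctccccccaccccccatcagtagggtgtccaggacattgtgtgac
Notch2: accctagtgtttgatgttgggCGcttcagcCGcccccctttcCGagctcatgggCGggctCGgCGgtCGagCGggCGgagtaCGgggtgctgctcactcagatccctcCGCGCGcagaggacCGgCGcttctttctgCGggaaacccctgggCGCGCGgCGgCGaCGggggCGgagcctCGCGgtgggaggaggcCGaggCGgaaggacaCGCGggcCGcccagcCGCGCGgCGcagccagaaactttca
Jag1: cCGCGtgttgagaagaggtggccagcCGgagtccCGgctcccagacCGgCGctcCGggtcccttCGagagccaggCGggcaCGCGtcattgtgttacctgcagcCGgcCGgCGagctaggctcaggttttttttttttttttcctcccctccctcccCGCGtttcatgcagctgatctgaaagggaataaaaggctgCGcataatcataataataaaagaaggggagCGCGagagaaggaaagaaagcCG

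The Notch4 promoter held 4 CpG dinucleotides, fewer than the promoter of any other member found, and 44.4% of all 32851 RefSeq promoter windows held 4 or fewer. Notch1 had 16, Jag1 20 and Notch2 34. The highest count was 54, in Jag2, and all members but Notch4 had a window with at least 14, against a median of 6 over all windows. Entries for 8 of the 10 members were matched by symbol, and Hes1 and Hey1 were the missing ones. The core letters that RBPJ binds, TGGGAA, were searched on both strands from 250 bases before to 50 after the start. They occurred in none of the 8 members' windows and in 25.6% of all windows. The longer form GTGGGAA, which contains the first motif, occurred in 6.38% of all windows. The N-box CACNAG, letters bound by HES repressors, was present in windows of 5 members, Notch1, Notch2, Notch3, Dll1 and Dll4, and in 42.5% of all windows. These matches describe letters and not binding.

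No member was called in the comparison of K-Ras Mll4-/- with K-Ras tumours. With edgeR's quasi-likelihood test, 0 of the 10 had a Benjamini-Hochberg adjusted p under 0.05, where 6 of 16001 genes (0.0375%) were called. The largest differences were lower values of Notch4, a receptor of endothelium, and of the HEY-family repressor Hey1. Jag1 and Notch2 had higher values, and Notch3 was level. At an unadjusted p under 0.05 the members with lower values numbered 4 of 10 (Notch1, Notch4, Dll4 and Hey1), against 10.4% of all genes in that direction, and those with higher values 0 of 10, against 11.4%. In either direction the share over all genes was 21.8%. With offsets for GC content and transcript length, 3 members had an edgeR unadjusted p under 0.05, against 3435 of all 16001 genes. Of these, Notch4 and Hey1 were lower and Notch2 was higher, and Notch1 and Dll4 no longer passed. DESeq2 called 2 members, Notch4 and Hey1, both lower, where it called 5.18% of all genes lower and 10.4% in either direction of the 15380 genes to which it gave an adjusted p. The edgeR likelihood ratio test called the same 2, where it called 9.39% of all genes, and limma-voom called 0 members and 0 genes. The median log2 fold change of the members was -0.46, beside -0.01 over all genes tested. Without K-Ras replicate 2 the members' median was -0.27, with 2 of 10 lower (Dll4 and Hey1) and 1 higher (Jag1) at an unadjusted p under 0.05, against 1753 and 1796 of all 16341 genes then tested. Groups without overlap between samples were seen for 8 of the 10 members, 6 lower and 2 higher. Over all genes 58.3% did not overlap, 28.5% lower and 29.9% higher.

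**Figure D1:**
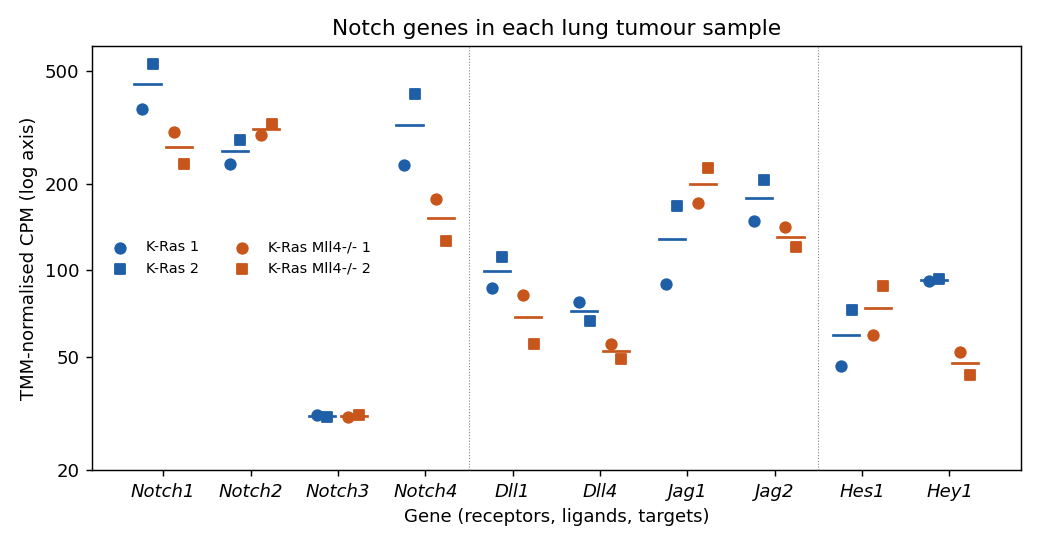
TMM-normalised CPM of the 10 Notch genes on a log axis, one point per tumour sample (blue, K-Ras; orange, K-Ras Mll4-/-; circles, replicate 1; squares, replicate 2), with short lines at the group means of 2 samples. Hey1 shows tight K-Ras values of 92.2 and 93.2 CPM above both K-Ras Mll4-/- values, and Notch3 sits at about the same level in all 4 samples.

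Among the receptors, Notch4 had the widest gap between groups. It was at 235 and 413 CPM in the K-Ras samples and at 177 and 127 CPM in the K-Ras Mll4-/- samples. Both K-Ras Mll4-/- values lay below both K-Ras values, and the K-Ras samples differed from each other by 1.76-fold. The group means were 324 ± 126 and 152 ± 35.5 CPM (SD, n = 2 each), giving a log2 fold change of -1.09 with an SE of 0.34 (edgeR adjusted p = 0.198). DESeq2 gave an adjusted p of 0.0228 and the likelihood ratio test 0.0413. Without K-Ras replicate 2, the sample rich in airway transcripts, the log2 fold change was -0.64. With all samples and offsets for GC content and transcript length it was -0.73. The size of the difference thus depended both on that sample and on these offsets.

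Notch1, a regulator of both epithelial and vascular fate, had the same order of samples. Its values were 366 and 529 CPM in K-Ras and 306 and 235 CPM in K-Ras Mll4-/- tumours. The groups did not overlap, and K-Ras replicate 2 was again the highest and K-Ras Mll4-/- replicate 2 the lowest. The log2 fold change was -0.73 with an SE of 0.26 (edgeR adjusted p = 0.217), and -0.45 without K-Ras replicate 2. With offsets for GC content and transcript length it was also -0.45. By the same measure of pattern for all members, the root mean square difference of centred log2 CPM over the 4 samples, the gene of the pathway and marker lists nearest to Notch1 was Cdh5, the endothelial cadherin, at 0.05, a distance that 0.119% of all tested genes matched or beat. The nearest to Notch4 was Cldn5, an endothelial tight junction gene, at 0.11, matched or beaten by 0.275%.

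Notch2, a receptor of many epithelia, went the other way in value. It was at 236 and 286 CPM in K-Ras and at 299 and 326 CPM in K-Ras Mll4-/- tumours. The groups did not overlap, but the gap between the nearest samples was small beside the spread within K-Ras. The log2 fold change was 0.26 with an SE of 0.17 (edgeR adjusted p = 0.417). It was 0.13 without K-Ras replicate 1, 0.39 without K-Ras replicate 2 and 0.49 with offsets for GC content and length.

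Notch3, the receptor of mural cells around vessels, was at 31.2 and 30.7 CPM in K-Ras and at 30.8 and 31.1 CPM in K-Ras Mll4-/- tumours. These were the most even values of any member, within 1 CPM of each other. The log2 fold change was 0.0026 with an SE of 0.13 (edgeR adjusted p = 0.992), with a sign that turned negative under other scalings (-0.055 with the upper quartile) and without K-Ras replicate 2 (-0.022), and a value of 0.30 with GC and length offsets. The 8 markers of pericytes and smooth muscle had a median log2 fold change of -0.49, with 6 of the 8 lower and 0 called (edgeR). At an unadjusted p under 0.05, 1 of them was lower, against 10.4% of all genes. The median was -0.30 without K-Ras replicate 2 and -0.15 without K-Ras replicate 1.

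The Delta-like ligands both had lower values in K-Ras Mll4-/- tumours. Dll4, the ligand of endothelial tip cells, was at 77.6 and 66.5 CPM in K-Ras and at 55.4 and 48.8 CPM in K-Ras Mll4-/- samples. K-Ras replicate 1 was the highest here, unlike for Notch1 and Notch4, and the groups did not overlap. Its log2 fold change was -0.47 with an SE of 0.15 (edgeR adjusted p = 0.195), and -0.59 without K-Ras replicate 2. With GC and length offsets it was -0.32. Dll1, a ligand used in many developing tissues, was at 86.6 and 112 CPM in K-Ras and at 82.1 and 55.2 CPM in K-Ras Mll4-/- samples. Its groups were separated only narrowly, with 86.6 above 82.1 CPM. The log2 fold change of Dll1 was -0.53 with an SE of 0.25 (edgeR adjusted p = 0.297), and it was -0.28 without K-Ras Mll4-/- replicate 2 and -0.35 without K-Ras replicate 2.

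The Jagged ligands had opposite signs. Jag1, a ligand of airway epithelium and of vessel walls, was at 89.9 and 168 CPM in K-Ras and at 172 and 229 CPM in K-Ras Mll4-/- samples. The lower K-Ras Mll4-/- value exceeded the higher K-Ras value by only a few CPM, while the K-Ras samples differed by 1.86-fold. Jag1 had a log2 fold change of 0.64 with an SE of 0.35 (edgeR adjusted p = 0.348). Leaving out K-Ras replicate 1 gave 0.26 and leaving out K-Ras replicate 2 gave 1.14. Jag2, which was among the higher members in K-Ras tumours, was at 149 and 208 CPM in K-Ras and at 142 and 120 CPM in K-Ras Mll4-/- samples. Its groups were separated by less than the spread within either. The log2 fold change of Jag2 was -0.45 with an SE of 0.21 (edgeR adjusted p = 0.297), and it was -0.20 without K-Ras replicate 2 and -0.12 with GC and length offsets.

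The targets Hes1 and Hey1 differed in pattern. Hey1, a repressor that Notch induces in endothelium and other tissues, was at 92.2 and 93.2 CPM in K-Ras and at 51.7 and 43.2 CPM in K-Ras Mll4-/- samples. Its K-Ras values were nearly identical, and the gap between groups was several times the spread within either. The means were 92.7 ± 0.750 and 47.5 ± 5.96 CPM (SD, n = 2 each), giving a log2 fold change of -0.97 with an SE of 0.14 (unadjusted p = 0.00139, edgeR adjusted p = 0.135). DESeq2 gave an adjusted p of 2.2e-04 and the likelihood ratio test 6.2e-04, whereas limma-voom gave 0.156. Leaving out any single sample kept the log2 fold change between -1.10 and -0.85, so no sample decided its size. In RefSeq the gene overlaps another protein-coding model, LOC115489673, and whether the counting used that model is not given in the sources used here.

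Hes1, the HES-family repressor that Notch induces in epithelial progenitors, was at 46.2 and 72.8 CPM in K-Ras and at 59.5 and 88.3 CPM in K-Ras Mll4-/- samples. The groups overlapped, and replicate 2 was the higher sample in each. The log2 fold change was 0.31 with an SE of 0.31 (edgeR adjusted p = 0.586). It ranged from -0.01, without K-Ras Mll4-/- replicate 2, to 0.67, without K-Ras replicate 2.

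**Figure D2:**
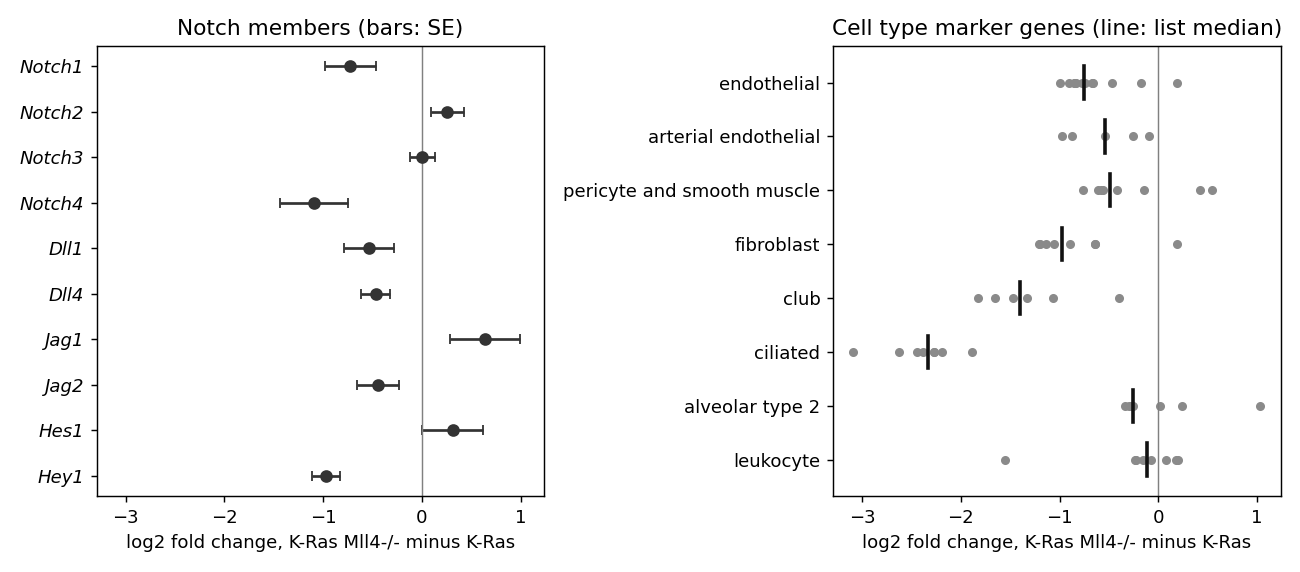
Log2 fold changes, K-Ras Mll4-/- minus K-Ras, for the 10 Notch genes with SE bars (left) and for single marker genes of 8 cell types with a line at each list's median (right). Notch4 at -1.09 and Hey1 at -0.97 lie near the lower end of the 12 endothelial markers, whose median is -0.76, while Jag1, Notch2 and Hes1 lie above 0.

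Ratios of reads between genes of the same library do not depend on the scaling between libraries, and they were formed per length of the longest GENCODE M21 transcript (GRCm38). Hes1 per Hey1 was 0.826 and 1.29 in the K-Ras samples and 1.90 and 3.37 in the K-Ras Mll4-/- samples. The groups did not overlap, but an exact permutation test of 2 against 2 samples cannot give a two-sided p below 0.333. Notch2 per Notch1 was 0.582 and 0.488 in K-Ras and 0.882 and 1.25 in K-Ras Mll4-/- samples. Jag1 per Jag2 was 0.548 and 0.733 in K-Ras and 1.10 and 1.73 in K-Ras Mll4-/- samples. These pairs also did not overlap. That follows from the single genes, since Notch2 and Jag1 were higher and Notch1 and Jag2 lower without overlap. It is therefore no further result. Dll4 per Notch4, a ligand and receptor of endothelium, was 0.582 and 0.283 in K-Ras and 0.549 and 0.675 in K-Ras Mll4-/- samples, so its groups overlapped.

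The order of the levels per length differed between the groups. In K-Ras tumours the mean level per kilobase was highest for Notch4 (49.2 ± 19.2 CPM per kb) and Notch1 (47.2 ± 12.2), followed by Hes1 (40.5 ± 12.8), Hey1 (38.3 ± 0.310), Jag2 (35.0 ± 8.14), Dll1 (27.7 ± 4.996), Notch2 (24.9 ± 3.37), Jag1 (22.9 ± 9.78), Dll4 (19.2 ± 2.10) and Notch3 (3.86 ± 0.0421; SD, n = 2 each). In K-Ras Mll4-/- tumours Hes1 led (50.3 ± 13.9 CPM per kb), then Jag1 (35.7 ± 7.19), Notch2 (29.8 ± 1.87), Notch1 (28.5 ± 5.25), Jag2 (25.7 ± 2.98), Notch4 (23.1 ± 5.39), Hey1 (19.6 ± 2.46), Dll1 (19.2 ± 5.31), Dll4 (13.9 ± 1.24) and Notch3 (3.86 ± 0.0300). Neighbours in these orders overlapped between samples, except Dll4 above Notch3 in both groups and Dll1 above Dll4 in K-Ras Mll4-/- tumours. Most single ranks are therefore not resolved.

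Within the receptor family, Notch4 made up 35.4% and 41.9% of the summed per-length level in the K-Ras samples and 29.4% and 24.4% in the K-Ras Mll4-/- samples. Notch2 made up 22.4% and 18.2% in K-Ras and 31.1% and 39.3% in K-Ras Mll4-/- samples. The groups did not overlap for either receptor. Within the ligands, Jag1 made up 17.8% and 25.0% in K-Ras and 31.9% and 44.0% in K-Ras Mll4-/- samples, again without overlap, and Dll4 overlapped. The Notch3 share was also higher, and the Notch1, Dll1 and Jag2 shares lower, without overlap. Notch2 and Jag1 were already higher as single genes, while the rest of each family was lower or level. Their separated shares follow from that and are no further result. The summed receptor level per length was 101 and 150 CPM per kb in K-Ras and 91.4 and 79.1 in K-Ras Mll4-/- samples, and that of the ligands was 90.2 and 120 in K-Ras and 96.1 and 92.8 in K-Ras Mll4-/- samples, which overlapped.

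**Figure D3:**
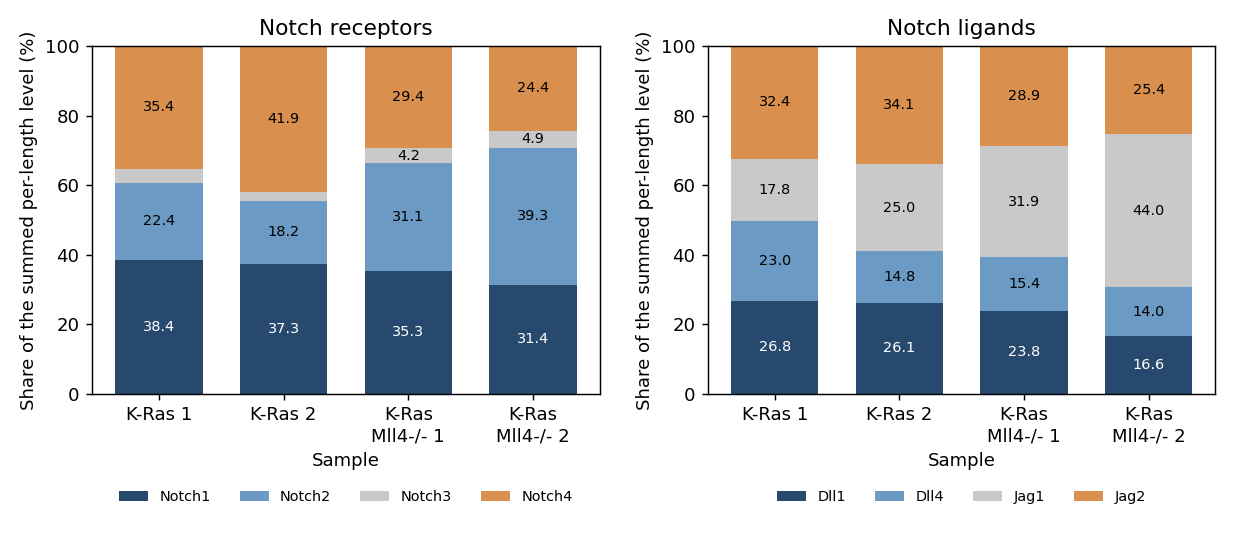
Share of the summed per-length level (%) taken by each Notch receptor (left) and each ligand (right) in the 4 samples, as stacked bars from 0 to 100%. The Notch2 share is 31.1% and 39.3% in the K-Ras Mll4-/- samples against 22.4% and 18.2% in the K-Ras samples, and the Jag1 share 31.9% and 44.0% against 17.8% and 25.0%.

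Endothelial transcripts differed in the same direction as Notch1, Notch4, Dll1, Dll4, Jag2 and Hey1. Of 12 endothelial markers, 11 had lower values in K-Ras Mll4-/- tumours, with a median log2 fold change of -0.76. Of these, 10 were lower without overlap, against 28.5% of all genes. At an unadjusted p under 0.05, 9 were lower, against 10.4% of all genes. edgeR's quasi-likelihood test called 0 of the 12 markers and DESeq2 called 9, where it called 5.18% of all genes lower. Their summed level was 5835 and 5801 CPM in the K-Ras samples and 4115 and 3192 CPM in the K-Ras Mll4-/- samples, and no marker was at 0. In such bulk samples, fewer cells of a type and less RNA per cell cannot be told apart. The 5 arterial markers had a median of -0.54, and of -0.22 without K-Ras replicate 1. Of the 5, 3 did not overlap, all lower, against 28.5% of all genes. Gja4, a gap junction gene of arteries, had the smallest p of the 5 (log2 fold change -0.97, edgeR unadjusted p = 0.00280).

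Set against the endothelial marker sum, the members separated. Notch4 was at 4.02 and 7.13 CPM per 100 CPM of endothelial markers in the K-Ras samples and at 4.31 and 3.98 in the K-Ras Mll4-/- samples. The groups overlapped on this scale, as they did for Notch1, Dll1 and Jag2. Set against the sum of the 5 arterial markers instead, Notch4 was at 33.6 and 49.0 CPM per 100 CPM in K-Ras and at 31.5 and 27.7 in K-Ras Mll4-/- samples, so its groups did not overlap. Against that arterial sum Notch1 and Dll1 overlapped and Jag2 was higher in both K-Ras Mll4-/- samples. Dll4 was at 1.33 and 1.15 in K-Ras and at 1.35 and 1.53 in K-Ras Mll4-/- samples, so its order between the groups was turned round, with a narrow gap, and its groups overlapped against the arterial sum. Against the pericyte and smooth muscle sum Dll4 was narrowly lower in both K-Ras Mll4-/- samples, and it overlapped against the fibroblast sum. Hey1 stayed lower, at 1.58 and 1.61 in K-Ras against 1.26 and 1.35 in K-Ras Mll4-/- samples. It was lower also against the arterial sum and that of pericyte and smooth muscle markers, and overlapped against the fibroblast sum. Notch2 was at 4.05 and 4.93 in K-Ras and at 7.25 and 10.2 in K-Ras Mll4-/- samples, and Jag1 at 1.54 and 2.89 against 4.18 and 7.17. Like these, Notch3 and Hes1 were higher on this scale in both K-Ras Mll4-/- samples than in both K-Ras samples. How the groups were ordered thus differed between marker sums for some members, and such a division describes the mixture and does not assign a transcript to a cell type.

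**Figure D4:**
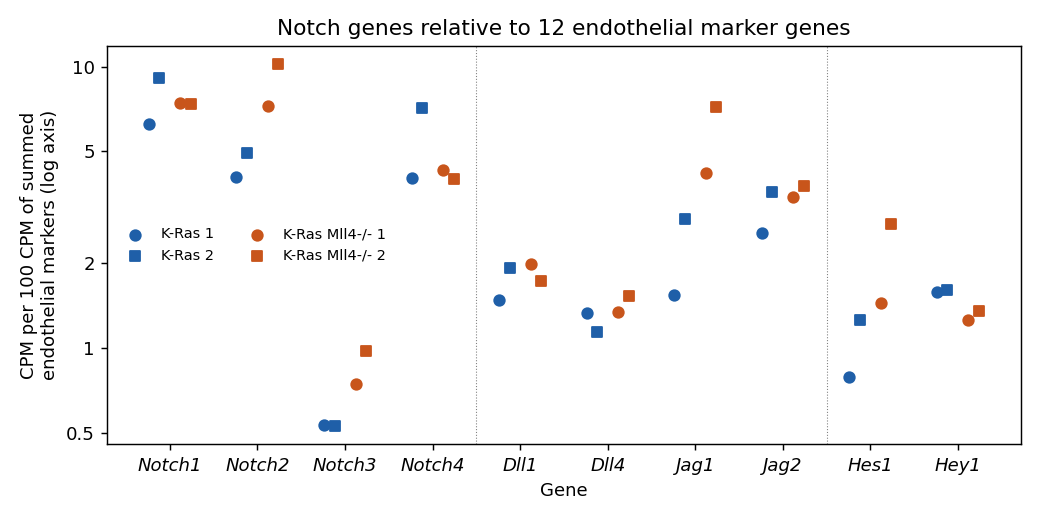
CPM of each Notch gene per 100 CPM of the summed level of 12 endothelial markers, on a log axis, one point per sample (blue, K-Ras; orange, K-Ras Mll4-/-; circles, replicate 1; squares, replicate 2). Notch1, Notch4, Dll1 and Jag2 overlap between the groups, Hey1 is lower in both K-Ras Mll4-/- samples, and Notch2, Notch3, Jag1, Hes1 and, narrowly, Dll4 are higher in both. The endothelial sum is itself lower in both K-Ras Mll4-/- samples, which raises level genes on this scale.

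Markers of other cell types were read beside the members. Over all genes, 28.5% were lower and 29.9% higher without overlap. At an unadjusted p under 0.05, 10.4% of all genes were lower and 11.4% higher. DESeq2 called 5.18% of all genes lower. Ciliated markers had lower values in K-Ras Mll4-/- tumours for 8 of 8 genes (median -2.33, 7 at an unadjusted p under 0.05, 0 called by edgeR and 6 by DESeq2), with the highest level in K-Ras replicate 2. Without that sample their median was -0.82, with 8 of 8 still lower and 5 at an unadjusted p under 0.05. Club markers had a median of -1.40 with K-Ras replicate 2 and of 0.15 without it, when 3 of 6 were lower and 3 higher, so their direction rests on that sample. Fibroblast markers had a median of -0.97, with 7 of 8 lower and not overlapping. Their summed level was 2487 and 1137 CPM in K-Ras against 847 and 861 CPM in K-Ras Mll4-/- samples. K-Ras replicate 1 was the highest here, and without it the median was -0.36. Alveolar type 2 markers had a median of -0.26, and of 0.19 without K-Ras replicate 2. Of these 7 genes the surfactant gene Sftpb was higher without overlap (1.03), and Etv5 and Napsa were lower without overlap (-0.28 and -0.33). The 6 alveolar type 1 markers had a median of 0.16 (0.07 without K-Ras replicate 2) and were split, with Aqp5 at 1.14 and Rtkn2 at 0.96 against Ager at -1.10, all at an unadjusted p under 0.05 and none called by edgeR. Leukocyte markers had a median of -0.11 after depletion, -0.42 without K-Ras replicate 2 and 0.50 without K-Ras replicate 1. The integrin gene Itgam, at -1.55, was the only one of the 8 at an unadjusted p under 0.05. Of 7 neuroendocrine markers only 3 passed the count filter. The basal-cell regulator Trp63 was at 1.60 and 4.48 CPM in K-Ras and at 18.5 and 88.6 CPM in K-Ras Mll4-/- samples. The median of 4 basal markers was 2.71, but they were not alike. Krt14 had 0 and 2 reads in K-Ras and 185 and 1119 reads in K-Ras Mll4-/- samples. Krt5 (log2 fold change 1.30) and Ngfr (0.05) overlapped between the groups. Of 4 mesothelial markers 2 passed the count filter and differed in sign. Msln was at 13.8 and 17.0 CPM in K-Ras and at 120 and 221 CPM in K-Ras Mll4-/- samples, whereas Lrrn4 had a log2 fold change of -0.40, and Wt1 and Upk3b were below 1 CPM in every sample. The parts of these cell types in the members' differences were not tested.

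Other genes of the pathway were taken from a list of 61 genes, of which 57 passed the count filter. edgeR's quasi-likelihood test called 0 of them. Their median log2 fold change was 0.06, beside -0.01 over all genes, with 32 above and 25 below 0, against 48.8% and 51.2% of all genes. At an unadjusted p under 0.05, 3 were higher and 6 lower, against 11.4% and 10.4% of all genes. DESeq2 called 5 (1 higher and 4 lower, against 5.23% and 5.18% of all genes), the likelihood ratio test 5 and limma-voom 0. Both tests called Dlk1 as higher and Tle2, Dtx3, Neurl1a and Neurl1b as lower.

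Among ligand-side genes, the non-canonical ligand Dlk1 was at 3.86 and 9.13 CPM in K-Ras and at 17.7 and 22.9 CPM in K-Ras Mll4-/- samples (log2 fold change 1.64, edgeR adjusted p = 0.181). Neurl1a and Neurl1b, ubiquitin ligases that promote ligand endocytosis, had lower values. Neurl1a was at 6.87 and 16.4 CPM in K-Ras and at 2.28 and 1.46 CPM in K-Ras Mll4-/- samples (log2 fold change -2.64, edgeR adjusted p = 0.156). The Neurl1a log2 fold change was -1.89 without K-Ras replicate 2 and -3.13 without K-Ras replicate 1, and each of these fits leaves 1 K-Ras sample. Neurl1b was at 25.7 and 36.1 CPM against 17.6 and 14.2 CPM (log2 fold change -0.96, edgeR adjusted p = 0.168).

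None of the genes that cut or glycosylate the receptors was called by edgeR or DESeq2. Adam10, the protease of the first ligand-triggered cut, was at 204 and 174 CPM in K-Ras and at 261 and 326 CPM in K-Ras Mll4-/- samples (log2 fold change 0.63, edgeR adjusted p = 0.185). Psenen, a subunit of the gamma-secretase that frees the intracellular part, had a log2 fold change of 0.44 (edgeR adjusted p = 0.233). Of the 10 cleavage genes, 6 were above and 4 below 0, with a median of 0.15, and of 0.07 without K-Ras replicate 2. Mfng, a Fringe glycosyltransferase that tunes receptors towards Delta-like ligands, was at 37.0 and 35.0 CPM in K-Ras and at 27.0 and 19.04 CPM in K-Ras Mll4-/- samples (log2 fold change -0.65, edgeR adjusted p = 0.199), and its log2 fold change was -0.43 without K-Ras Mll4-/- replicate 2. Its relative Lfng, named here after its values were seen, had a log2 fold change of -0.66 (edgeR adjusted p = 0.178). Dtx3, of the Deltex family of receptor regulators, had one of -0.67 (edgeR adjusted p = 0.155).

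In the nucleus, Rbpj was at 53.0 and 30.8 CPM in K-Ras and at 61.4 and 72.3 CPM in K-Ras Mll4-/- samples (log2 fold change 0.67, edgeR adjusted p = 0.269). The groups did not overlap, but K-Ras replicate 2 was far below the other samples, and without it the log2 fold change was 0.32. The mouse genome holds copies of Rbpj, so its uniquely assigned reads are uncertain. The other 8 genes of nuclear activation had log2 fold changes between -0.03 and 0.29. Among corepressors of the Groucho family, Tle2 was lower in value (-0.94, edgeR adjusted p = 0.147) and Tle3 higher (0.38, edgeR adjusted p = 0.211). The Tle2 log2 fold change was -1.12 without K-Ras replicate 1 and -0.74 without K-Ras replicate 2, each fit leaving 1 K-Ras sample.

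The other HES, HEY and feedback targets were low or level. All 5 tested had log2 fold changes below 0, with a median of -0.48, 0 at an unadjusted p under 0.05 and 2 without overlap, Heyl and Dtx1. Without K-Ras replicate 2 the median was -0.09, with Hes6 at 0.47 and Nrarp at 0.06 above 0, so the shared sign was not kept without that sample. Heyl, a HEY relative of mural cells, was at 18.5 and 11.4 CPM in K-Ras and at 10.9 and 9.49 CPM in K-Ras Mll4-/- samples (log2 fold change -0.55, edgeR adjusted p = 0.332), with -0.16 without K-Ras replicate 1 and -0.87 without K-Ras replicate 2. Nrarp, a feedback inhibitor that Notch induces, was at 15.8 and 24.6 CPM in K-Ras and at 21.6 and 11.7 CPM in K-Ras Mll4-/- samples, with overlapping groups (log2 fold change -0.28, edgeR adjusted p = 0.701). Hes5 and Hes7 did not pass the count filter.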

How the data were processed

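Gene expression was measured by RNA sequencing in 4 mouse lung tumour samples, 2 per group, grouped by their titles. Each deposited file holds raw read counts, listed by gene symbol. CASAVA 1.4, STAR, HTSeq and the mm9 genome build are named in the submitters' processing notes, while settings, annotation and strand are not given in the sources used here. Reads with more than 1 alignment, and the 0.419% to 0.503% of uniquely aligned reads that fell in overlapping genes, are tallied apart in the deposited files.

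Counts were fitted over all 4 samples with edgeR 4.0.16 in R 4.3.3 (filterByExpr, TMM, robust quasi-likelihood test, Benjamini-Hochberg adjustment over 16001 genes, called under 0.05). The SE is the log2 fold change divided by the square root of F. DESeq2 1.42.0 and limma 3.58.1 (voom) were alternatives, with other scalings, filters on counts, a replicate block, offsets for GC content and length (mgcv) and single samples left out. Lengths come from GENCODE M21 (GRCm38), another build than the files', so gene coordinates are not given. Log2 CPM used a prior count of 2.

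The members and lists were chosen with earlier results of these data known. Named were all members, Kmt2d, pathway genes called or with the 4 smallest p-values in each direction, and Rbpj, Nrarp, Heyl and Mfng. For pattern, the 2 nearest listed genes per member were computed. No adjustment was made over the members alone. Floors cover counting only, whereas the SE and the SD also hold the spread between samples.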

Additional observations from a re-analysis of the deposited data

How the results depend on the processing

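Against 6 genes called among all genes, the count was 44 with no count filter, 217 with the replicate block, 301 with block and GC and length offsets together, 1601 with DESeq2, 1503 with the likelihood ratio test and 0 with limma-voom (3228 at an unadjusted p under 0.05), and between 0 and 528 with single samples left out, the highest without K-Ras replicate 1. The cause of these shifts was not tested. Of the members, 0 were called except 2 with DESeq2 and 2 with the likelihood ratio test, and leaving out single samples gave 0 throughout. Of the other pathway genes, 5 were called with DESeq2, 5 with the likelihood ratio test, 1 with the replicate block plus those offsets, and between 0 and 2 with single samples left out, the 2 without K-Ras replicate 1. The replicate block alone called 0 members and 0 other pathway genes. Replicate numbers are not said to pair samples, and deviations of same-numbered samples correlated at 0.21 across genes. Signs turned for Notch3 (-0.0068 with RLE size factors, -0.055 with the upper quartile, -0.050 with total counts, -0.023 with the strict filter, -0.0067 with DESeq2, and -0.022 to 0.018 with single samples left out), for Hes1 (-0.0074 to 0.67 with single samples left out) and for Nrarp (-0.78 to 0.089). The other 8 members kept their sign under all 15 alternatives. In an alternative chosen after seeing the data, list medians without K-Ras replicate 2 turned sign for club (0.15) and alveolar type 2 markers (0.19). The median of the leukocyte markers turned sign without K-Ras replicate 1 (0.50) and without K-Ras Mll4-/- replicate 2 (0.18). Depth does not limit the members, which had 809 reads or more.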

Other observations

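Neighbouring genes were looked at after the members' values were seen. Egfl7, itself in the list of endothelial markers, is the next protein-coding gene after Notch1 in RefSeq coordinate order (GRCm38.p6). It had a log2 fold change of -0.90 with an SE of 0.24 (edgeR adjusted p = 0.176), beside -0.73 for Notch1. Agpat2, the next one, had -0.25. On the other side of Notch1, Sec16a had -0.06, Inpp5e -0.24 and Pmpca 0.38 (edgeR adjusted p = 0.226 for Pmpca). Near Notch4, the nearest genes on one side, Gpsm3 and Pbx2, had -0.10 and -0.14, and Ager, the alveolar type 1 receptor gene beyond them, had -1.10 (edgeR adjusted p = 0.156), beside -1.09 for Notch4. On the other side of Notch4, the butyrophilin-like genes Btnl6 and Btnl4 had 1.54 and 0.93, neither called (edgeR adjusted p = 0.184 and 0.248), and BC051142 beyond them had -1.45 (edgeR adjusted p = 0.156). Next to Dll4, Vps18 had 0.17 and Chac1 -0.40. At 1 gene farther, Rhov had -2.81 (edgeR adjusted p = 0.176) on the Vps18 side and Ino80 had -0.01 on the Chac1 side. Beyond them, Spint1 had 0.42 and Exd1 0.20. Neighbours of the other members are not described here.

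Patterns over the 4 samples were also nearest to endothelial genes for Hey1 (Sox17 at a root mean square log2 difference of 0.08, matched or beaten by 0.244% of all tested genes) and Dll4 (Erg at 0.09, by 1.82%). For Notch2 the nearest was Kat2a at 0.02, by 0.0688%, and for Notch3 Maml1 at 0.03, by 0.550%. For Jag1 the nearest lay farther away, Dner at 0.20, by 1.67%. The remaining members were nearest to no endothelial marker, with Syp for Dll1, Napsa for Jag2 and Tle4 for Hes1. The second nearest was an endothelial or arterial marker for Hey1 (Tek) and Notch4 (Sema3g). It was a pathway gene for Notch1 (Neurl1b) and Dll4 (Fbxw7). With 4 samples such likeness is a description only.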
